A study of Mus musculus with 55 samples.

Results

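The genes described here encode cytokines, chemokines, growth factors and their receptors, chosen by their symbols: the Ccl, Ccr, Cxcl, Cxcr, Cx3c, Il, Tnf, Csf, Lif, Osm, Tgfb, Tgfbr, Fgf, Fgfr, Igfbp, Vegf, Pdgf, Gdf, Bmp and Inhb names with Areg, Ereg and Hbegf. They number 72 of the 4113 genes in 2 deposited tables of liver RNA-seq counts. The table of Setd8-LKO + TCPOBOP against untreated WT held 3900 genes, 68 of them members, and that of WT + TCPOBOP against untreated WT held 719, with 10 members, of which 6 were in both. Each table lists only genes that the authors had selected for a difference in that same comparison, so every call below describes listed genes and is not independent evidence. Some symbols mark a related protein rather than a ligand or receptor: the Tnfaip genes are named after induction by TNF, and Bmp1 encodes a procollagen-cleaving metalloprotease.

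The libraries came from whole livers of male mice aged 45 to 50 days. WT mice were left untreated (n = 5) or received TCPOBOP at 3 mg/kg by a single intraperitoneal injection 24 h before collection (n = 5). Setd8-LKO mice (Setd8 lox/lox-AlbCre, n = 4), in which the Alb-Cre transgene deletes floxed exon 7 of Setd8 in hepatocytes, received the same injection. TCPOBOP is an agonist of the nuclear receptor CAR and a liver mitogen, and Setd8 (gene symbol Kmt5a) is the enzyme that monomethylates histone H4 at lysine 20. Genotype and treatment changed together between the Setd8-LKO + TCPOBOP and untreated WT groups, so their effects cannot be told apart in that comparison. The labels call the controls untreated, whereas the methods describe corn oil as the vehicle and the study's reporting form gives DMSO for mock treatment, so a vehicle injection cannot be told apart from the groups either. The methods call the RNA-seq samples biological replicates, a term they use for mice.

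Cytokines and growth factors are secreted or membrane-bound proteins that act on cells carrying the matching receptor. In the liver, hepatocytes carry receptors for the IL-6 family, which signal through gp130 and the JAK kinases to STAT3, and for IL-1 and TNF, which signal to NF-kB and AP-1. TGF-beta family ligands signal through SMAD proteins, and PDGF and FGF ligands through receptor tyrosine kinases. Chemokines attract leukocytes that carry G protein-coupled chemokine receptors. Kupffer cells, stellate cells, endothelium and cholangiocytes are also sources and targets of these signals, and whole-liver RNA holds all of them.

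Promoters of 6 genes that the results turn on are shown first, each as the 250 bases before a RefSeq start on the gene strand, with RefSeq coordinates on GRCm38.p6. Lif, Cxcl10, Tnfaip3 and Fgf21 rose in Setd8-LKO + TCPOBOP, whereas Cxcl9 and Ccl27a fell, and Cxcl10 and Cxcl9 encode ligands of the same receptor. Capitals mark matches on either strand to the letters TGANTCA (AP-1), TGACGTCA (CRE), TGATGNAA (CARE, the C/EBP-ATF response element), GGANTTTCC (NF-kB), GAAANNGAA (ISRE core), and to the TATA box letters TATAAA.
Lif (chr11:4257318-4257567, plus strand): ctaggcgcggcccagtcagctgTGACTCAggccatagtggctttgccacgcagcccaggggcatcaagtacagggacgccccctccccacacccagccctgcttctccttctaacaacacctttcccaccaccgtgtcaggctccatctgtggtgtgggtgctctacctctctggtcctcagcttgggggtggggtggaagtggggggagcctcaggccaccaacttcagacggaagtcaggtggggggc
Cxcl10 (chr5:92348890-92349139, minus strand): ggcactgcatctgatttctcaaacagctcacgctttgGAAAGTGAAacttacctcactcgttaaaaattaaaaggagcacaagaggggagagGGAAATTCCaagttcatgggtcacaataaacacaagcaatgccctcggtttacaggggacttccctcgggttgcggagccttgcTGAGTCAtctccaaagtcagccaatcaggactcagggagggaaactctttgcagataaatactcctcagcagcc
Cxcl9 (chr5:92328080-92328329, minus strand): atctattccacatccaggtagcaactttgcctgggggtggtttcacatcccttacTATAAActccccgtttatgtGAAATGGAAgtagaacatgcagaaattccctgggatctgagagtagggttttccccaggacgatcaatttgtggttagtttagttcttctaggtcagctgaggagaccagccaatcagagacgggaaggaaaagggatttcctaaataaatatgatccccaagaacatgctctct
Tnfaip3 (chr10:19015411-19015660, minus strand): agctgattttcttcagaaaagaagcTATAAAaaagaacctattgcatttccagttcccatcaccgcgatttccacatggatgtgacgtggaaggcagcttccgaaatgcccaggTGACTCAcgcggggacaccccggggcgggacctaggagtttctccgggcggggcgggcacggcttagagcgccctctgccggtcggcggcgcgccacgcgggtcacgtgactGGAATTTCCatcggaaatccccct
Fgf21 (chr7:45615491-45615740, minus strand): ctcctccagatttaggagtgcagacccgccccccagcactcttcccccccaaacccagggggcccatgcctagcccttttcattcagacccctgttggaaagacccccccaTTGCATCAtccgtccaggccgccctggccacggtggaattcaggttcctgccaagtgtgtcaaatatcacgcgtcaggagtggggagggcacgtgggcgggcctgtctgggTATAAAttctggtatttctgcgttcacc
Ccl27a (chr4:41774102-41774351, minus strand): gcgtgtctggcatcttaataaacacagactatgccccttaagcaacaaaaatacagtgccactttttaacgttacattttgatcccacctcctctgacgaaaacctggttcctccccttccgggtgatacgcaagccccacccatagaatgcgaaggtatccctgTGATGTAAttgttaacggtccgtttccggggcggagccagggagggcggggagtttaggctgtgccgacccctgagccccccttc
In these windows the AP-1 match of Lif began 228 bases before the start. Cxcl10 held an ISRE core match at 213, an NF-kB match at 158 and an AP-1 match at 74 bases before its start. Cxcl9 held a TATA match at 195 and an ISRE core match at 175 bases before its start, and no match to the NF-kB letters used. Close variants of those letters, such as gggatttcc in Cxcl9 and ggggacttccc in Cxcl10, were not marked. Tnfaip3 held a TATA match at 225, an AP-1 match at 136 and an NF-kB match at 24 bases before its start. Fgf21 held a CARE match at 139 and a TATA match at 28 bases before its start, and Ccl27a a CARE match at 85. Ccl27a has 3 RefSeq windows and Tnfaip3 has 2. The window shown is that with the most different kinds of match, then one under an ATAC-seq peak of open chromatin. The CARE match of Ccl27a also lies 10 bases before another start, and its remaining window holds AP-1 at 77 and no CARE. The other Tnfaip3 window holds only CARE, at 22. A match is a run of letters and does not show that a factor binds there, and its absence does not show that none does.

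Before the genes themselves, the libraries were compared. The authors' scaling factors were 1.03 to 1.25 for untreated WT, 1.09 to 1.39 for WT + TCPOBOP and 0.752 to 0.855 for Setd8-LKO + TCPOBOP. Listed genes summed to 5734065 to 12780869 raw counts per library in the first table and to 1389901 to 3706582 in the second, which is not the library depth, since unlisted genes are missing from these sums. Kmt5a was counted at 563 to 761 in untreated WT and at 1313 to 1465 in the libraries labelled Setd8-LKO (log2 fold change 1.08, edgeR adjusted p = 0.000151). A count over the whole gene cannot resolve the floxed exon, so it does not check the deletion, and groups are named by their labels. On GRCm38 (GENCODE M21), the members with the clearest changes below lie at chr8:70629393-70632456 (Gdf15), chr14:69767472-69784411 (Tnfrsf10b), chr17:23675445-23677468 (Tnfrsf12a), chr3:7569994-7613760 (Il7), chr15:7090614-7197489 (Lifr), chr5:75152292-75198215 (Pdgfra) and chr11:7197782-7202546 (Igfbp1). Markers of other liver cells moved as well. Of 8 stellate cell and fibroblast markers 4 were listed, Col1a1, Col1a2, Col3a1 and Dcn, while Lrat, Des, Reln and Acta2 were not. These 4 summed to 2149 to 3317 in untreated WT and to 13103, 11974, 5583 and 7422 in Setd8-LKO + TCPOBOP libraries 1 to 4. The 6 cholangiocyte markers summed to 424 to 697 against 7506, 6033, 1634 and 3906. Spp1 made up most of the latter sums (261 to 514 against 1259 to 6634), 5 of the 6 cholangiocyte genes were called higher, and Krt19 was not (1.49, adjusted p = 0.0659). The 8 listed hepatocyte markers summed to 1317809 to 2107200 against 680283 to 931855, with 7 called lower and Cyp3a11 called higher (1.35). Monocyte markers (3 listed of 5) went from 11 to 25 up to 40 to 99, and dendritic cell markers (2 of 5) from 24 to 53 up to 100 to 314. None of 8 T cell or 6 NK cell markers was listed, and only Marco of 12 macrophage markers was, at 73 to 272 against 304 to 489. Of 8 endothelial markers only Vwf was listed, at 89 to 198 against 196 to 330. B cell markers (3 of 5) went both ways, with 1 called higher and 2 lower. Neutrophil markers (2 of 10) summed to 6 to 100 against 71 to 121, with 0 called. In whole-liver RNA, a change in the number of cells of a type and a change in RNA per cell cannot be told apart, and the part of cell composition in the values below was not tested.

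**Figure D1:**
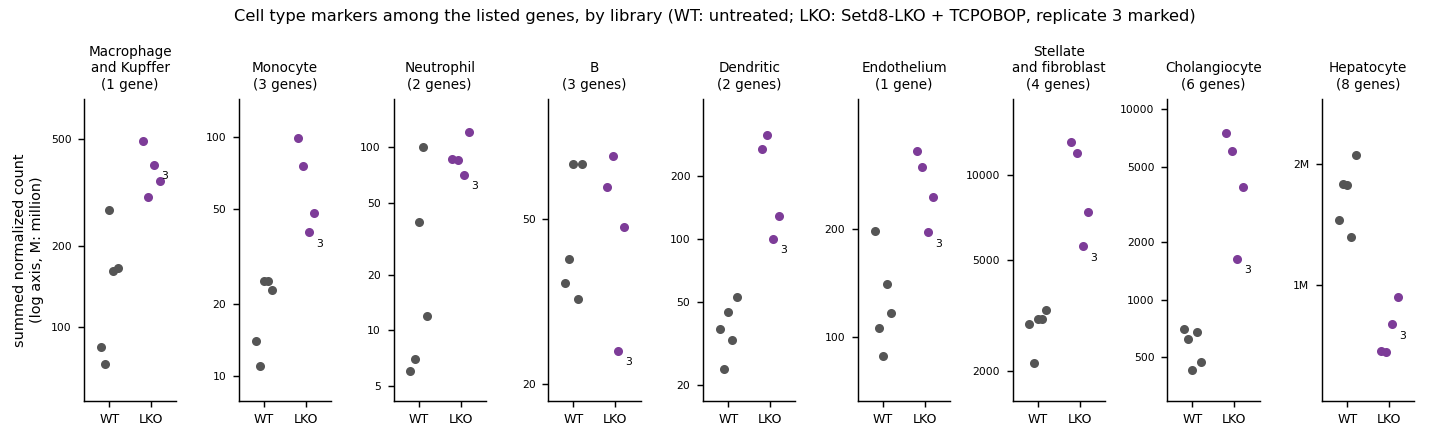
Summed normalized counts (log axis) of the listed markers of 9 liver cell types, 1 point per library, for untreated WT and Setd8-LKO + TCPOBOP with replicate 3 marked. Stellate cell and cholangiocyte sums were higher in all 4 Setd8-LKO + TCPOBOP libraries and lowest in replicate 3 among them, and the hepatocyte sums were lower in all 4.

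In Setd8-LKO + TCPOBOP against untreated WT, genes of most families rose, whereas several hepatocyte receptors fell. Of 68 listed members, 64 passed the filter on low counts. Of these 37 (57.8%) were called higher and 17 (26.6%) lower by edgeR's quasi-likelihood test at a Benjamini-Hochberg adjusted p under 0.05 and a change of at least 2-fold, that is 1 on the log2 scale. Among all 3726 tested genes of the table, 55.2% were called higher, 37.5% lower and 92.7% in either direction, so the members' share of called genes (84.4%) was near that of the table. The groups did not overlap for 53 members (82.8%), against 86.8% of all tested genes. The median log2 fold change was 1.41 over the tested members and 1.16 over all tested genes. The column headers place the libraries in 2 runs, A and B, without saying what a run was. Setd8-LKO + TCPOBOP replicate 4 was the only run A library of its group. All 54 called members had the same direction within each run. For members whose groups did not overlap that was fixed in advance, so it is no check on the run. With DESeq2 size factors in place of the authors' factors, which moved the median of all genes by -0.82 on the log2 scale, 19 members were called higher and 19 lower. No called member changed direction, but a shift smaller than the calling threshold leaves little room for that, so it is no check.

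**Figure D2:**
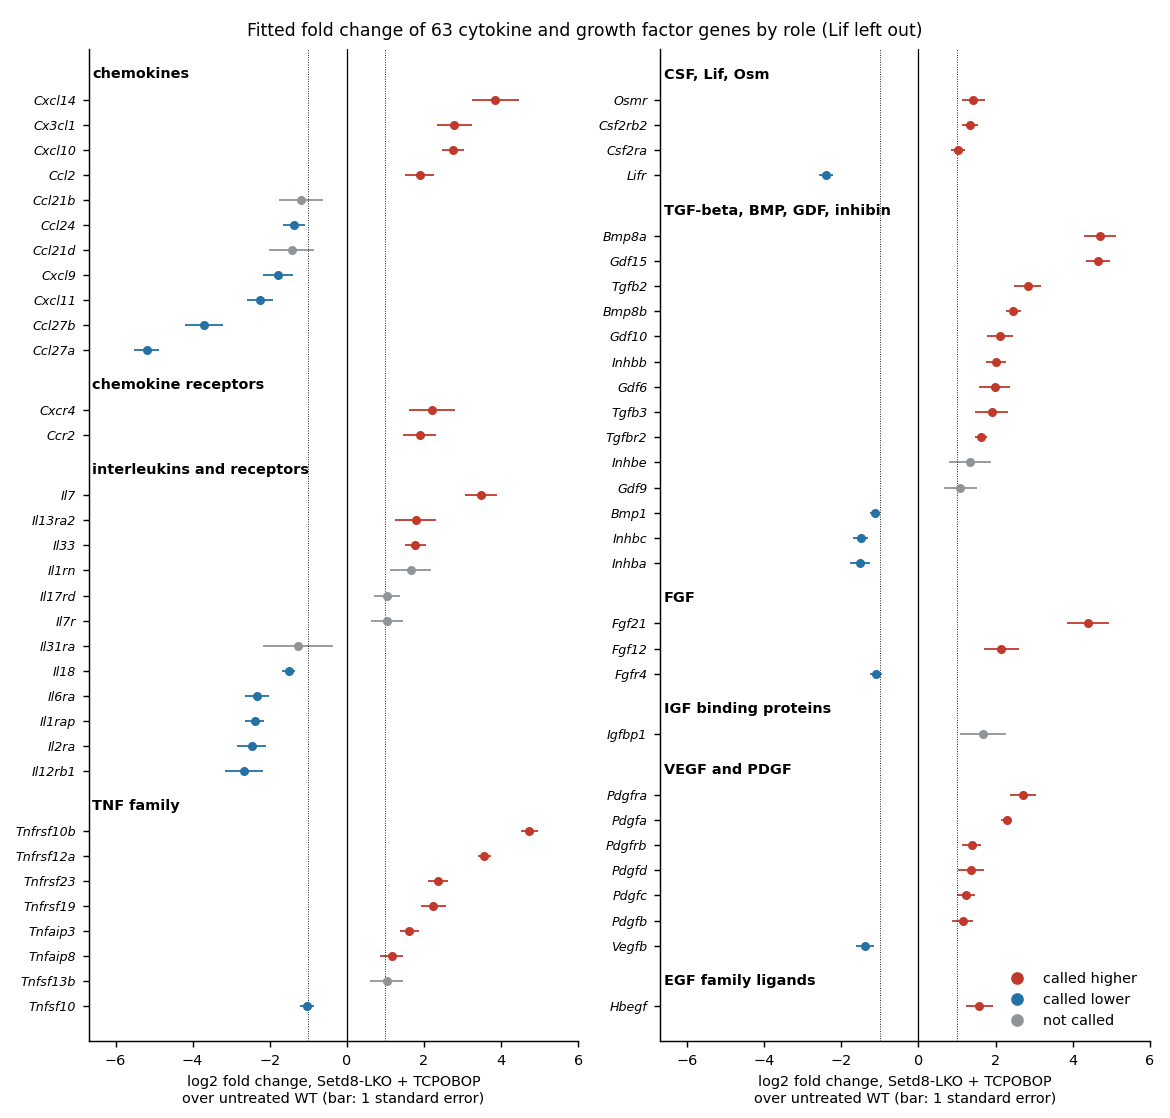
Fitted log2 fold change of Setd8-LKO + TCPOBOP over untreated WT (horizontal axis, bars of 1 standard error) for the tested members by family, red called higher, blue called lower, grey not called, with dotted lines at the threshold. Lif, which had no count in untreated WT, is left out. TNF, TGF-beta and PDGF family genes lie mainly to the right, while chemokines and interleukins fall on both sides.

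Among the IL-6 family and colony stimulating factor genes, 4 of 5 tested members rose and 1 fell. Lif, a ligand of the IL-6 family, had a normalized count of 0 in every untreated WT library. It was counted at 53, 70, 14 and 46 in Setd8-LKO + TCPOBOP libraries 1 to 4, at least 69.1-fold higher against a floor of 3 counts over the untreated group (adjusted p = 0.000746). Its receptor moved the other way. Lifr, the receptor subunit that pairs with gp130 to bind Lif, was counted at 9698, 8700, 8868, 6272 and 7112 in untreated WT and at 1425, 1495, 1681 and 1589 in Setd8-LKO + TCPOBOP, a 5.25-fold fall (log2 fold change -2.39, SE 0.18, adjusted p = 5.79e-06). No library of one group reached the range of the other for either gene. Osmr, the receptor subunit for oncostatin M, which also pairs with gp130, rose from 76, 50, 145, 137 and 116 to 366, 276, 242 and 246 (2.69-fold, log2 fold change 1.43, SE 0.30, adjusted p = 0.00412). Its fold change was 0.89 within run A and 2.22 within run B on the log2 scale, and it was not called with DESeq2 size factors (0.62). Csf2rb2 (1.34) and Csf2ra (1.02), which encode receptor subunits of the GM-CSF and IL-3 family, rose by less, and Csf2ra lay at the threshold and fell below it without Setd8-LKO + TCPOBOP replicate 1 (0.94) or untreated WT replicate 3 (0.97), and with run as a term (0.95). Reads of Csf2rb2 may be shared with its near-identical neighbour Csf2rb, so its count is uncertain.

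Interleukin and interleukin receptor genes went both ways, with 3 higher, 5 lower and 4 not called of 12 tested, and a median of -0.11. Il7, a growth factor for lymphocyte precursors, was counted at 2, 3, 3, 10 and 3 in untreated WT and at 60, 60, 35 and 43 in Setd8-LKO + TCPOBOP (11.2-fold, log2 fold change 3.48, SE 0.42, adjusted p = 0.000108). Il33, a nuclear alarmin of the IL-1 family, rose from 26 to 67 up to 106 to 185 (1.78, SE 0.27, adjusted p = 0.00055). Both genes separated the groups completely. Il13ra2, a decoy receptor for IL-13, was called at 1.79 (adjusted p = 0.0348), but leaving out any of 6 of the 9 libraries (untreated WT 2, 3 and 5, Setd8-LKO + TCPOBOP 1, 2 and 3) raised its adjusted p to between 0.0524 and 0.0978, and run as a term gave 0.098.

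The 5 interleukin genes that fell included receptors of hepatocytes. Il1rap, the accessory chain shared by the IL-1 and IL-33 receptors, fell from 3790, 4324, 3090, 3019 and 3656 to 507, 463, 965 and 785 (5.26-fold, log2 fold change -2.39, SE 0.25, adjusted p = 3.96e-05). Il6ra, the ligand-binding chain of the IL-6 receptor, was counted at 631, 522, 1216, 1190 and 1456 in untreated WT and at 227, 195, 196 and 176 in Setd8-LKO + TCPOBOP (-2.34, SE 0.31, adjusted p = 0.000182). The 2 untreated libraries of run B were the lowest of the untreated group and still lay above every Setd8-LKO + TCPOBOP library. Il18, an IL-1 family cytokine, fell from 182 to 280 down to 76 to 80 (-1.51, SE 0.18). Genes of lymphocyte receptors fell at low counts: Il12rb1, a chain of the IL-12 and IL-23 receptors, went from 12 to 45 down to 2 to 9 (-2.66), and Il2ra, the alpha chain of the IL-2 receptor, from 19 to 41 down to 2 to 9 (-2.47).

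Among the interleukin genes not called, Il1rn, the secreted antagonist of the IL-1 receptor, was counted at 11, 19, 97, 85 and 43 against 171, 171, 95 and 207 (1.65, SE 0.54, adjusted p = 0.0584). It passed the threshold with run as a term (2.54, adjusted p = 0.00249), as did Il17rd. Il31ra, a receptor chain for IL-31, followed the run. Its counts were 12360, 10663 and 7691 in the untreated run A libraries and 7181 in the single Setd8-LKO + TCPOBOP run A library, against 627 and 960 and 1437, 1149 and 1003 in the run B libraries. Its fitted log2 fold change was -1.26 (adjusted p = 0.966) and 0.19 with run as a term. Il17rd (1.04, adjusted p = 0.0576) and Il7r (1.04, adjusted p = 0.141) were not called either. Il18r1 and Il18rap, the 2 chains of the IL-18 receptor, and Il17re did not pass the filter, with counts of at most 8 in untreated WT and 6 to 27 in Setd8-LKO + TCPOBOP.

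TNF family genes mostly rose, with 6 higher, 1 lower and 1 not called of 8 tested and a median of 1.93. Tnfrsf10b, the mouse death receptor for TRAIL, was counted at 5, 4, 5, 5 and 4 in untreated WT and at 137, 142, 117 and 124 in Setd8-LKO + TCPOBOP (26.6-fold, log2 fold change 4.73, SE 0.22, adjusted p = 5.56e-07). Tnfrsf23, a decoy receptor for TRAIL, rose from 13 to 22 up to 67 to 115 (2.35, SE 0.26). Tnfsf10, which encodes TRAIL itself, fell from 146, 117, 142, 133 and 130 to 59, 67, 53 and 82 (-1.03, SE 0.19, adjusted p = 0.00176). Receptors and ligand therefore differed in direction, each with groups that did not overlap. The fall of Tnfsf10 lay at the 2-fold threshold and missed it without Setd8-LKO + TCPOBOP replicate 1 (-0.99) or 3 (-0.94) or untreated WT replicate 1 (-0.998), and with run as a term (-0.97).

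Tnfrsf12a, the receptor for TWEAK, had the smallest standard error among members with a log2 fold change above 3. It was counted at 106, 104, 105, 133 and 84 in untreated WT and at 1287, 1382, 1261 and 1112 in Setd8-LKO + TCPOBOP (11.8-fold, log2 fold change 3.56, SE 0.16, adjusted p = 4.48e-07). Tnfrsf19, an orphan receptor of the family, rose from 91, 89, 35, 59 and 54 to 323, 396, 158 and 368 (2.25, SE 0.34, adjusted p = 0.000432). Tnfaip3, which encodes the ubiquitin-editing enzyme A20 that limits NF-kB signalling, rose from 31 to 70 up to 116 to 163 (1.62, SE 0.24). Tnfaip8 (1.16, SE 0.30), with 12.7% of its exon length under another gene, was called as well, but fell short without Setd8-LKO + TCPOBOP replicate 1 (0.98, adjusted p = 0.0613). Tnfsf13b, which encodes the B cell factor BAFF, was not called (1.03, adjusted p = 0.172), and Tnfsf14 did not pass the filter at 1 to 7 against 10 to 18.

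Chemokines divided, with 4 higher, 5 lower and 2 not called of 11 tested and a median of -1.36. Cxcl10, a ligand of the receptor Cxcr3 on activated lymphocytes, rose from 40, 38, 56, 32 and 34 to 380, 218, 162 and 325 (6.77-fold, log2 fold change 2.76, SE 0.28, adjusted p = 3.81e-05). The other ligands of the same receptor, whose genes lie beside Cxcl10 on chromosome 5, went the other way. Cxcl9, named here after its values were seen, fell from 91, 91, 229, 149 and 208 to 34, 24, 50 and 72 (-1.78, SE 0.40, adjusted p = 0.00619). Cxcl11 fell from 70 to 109 down to 8 to 28 (-2.26, SE 0.35, adjusted p = 0.000515), although it is annotated as a polymorphic pseudogene and 41.7% of its exon length lies under the antisense gene Gm2673, so reads of the pair may be mixed. All 3 genes had groups that did not overlap.

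Cxcl14, a chemokine of epithelia and stroma, rose from 27, 11, 12, 45 and 10 to 586, 395, 111 and 142 (3.85, SE 0.61, adjusted p = 0.000616). Cx3cl1 or fractalkine, a membrane-bound chemokine, rose from 12, 6, 12, 12 and 12 to 137, 92, 29 and 50 (2.79, SE 0.44). In both, libraries 1 and 2 of Setd8-LKO + TCPOBOP were the highest, the same libraries in which cholangiocyte and stellate cell marker sums were highest. Ccl2, the monocyte chemoattractant, rose from 5, 4, 9, 12 and 12 to 38, 36, 17 and 38 (1.88, SE 0.38, adjusted p = 0.00315). Its receptor gene Ccr2 rose from 28, 10, 26, 40 and 18 to 143, 106, 44 and 68 (1.89, SE 0.42, adjusted p = 0.00633), beside the rise of the monocyte marker sum. Ccl2 (1.04) and Ccr2 (1.01) were not called with DESeq2 size factors. Cxcr4, the receptor for Cxcl12, rose from 2, 0, 15, 6 and 14 to 48, 35, 27 and 34 (2.21, adjusted p = 0.0195), and its adjusted p was 0.0606 without Setd8-LKO + TCPOBOP replicate 1 and 0.0548 without untreated WT replicate 4.

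The largest fall of all members was that of Ccl27a, which encodes a ligand of Ccr10. It was counted at 108, 149, 141, 105 and 202 in untreated WT and at 4, 3, 5 and 3 in Setd8-LKO + TCPOBOP (36.7-fold, log2 fold change -5.20, SE 0.31, adjusted p = 1.85e-06). Its near-identical copy Ccl27b fell from 11, 31, 20, 11 and 24 to 2, 1, 2 and 1 (-3.70, SE 0.50), and reads of the copies may have been split between them. Ccl24 fell from 21 to 34 down to 8 to 15 (-1.36). Ccl21b (-1.19, adjusted p = 0.31) and Ccl21d (-1.43, adjusted p = 0.175), another pair of near-identical genes, were not called, with untreated WT counts of 1 to 39 and 3 to 44 against 9 to 13 and 5 to 14. Both were called without untreated WT replicate 2, whose counts of 1 and 3 were the lowest.

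**Figure D3:**
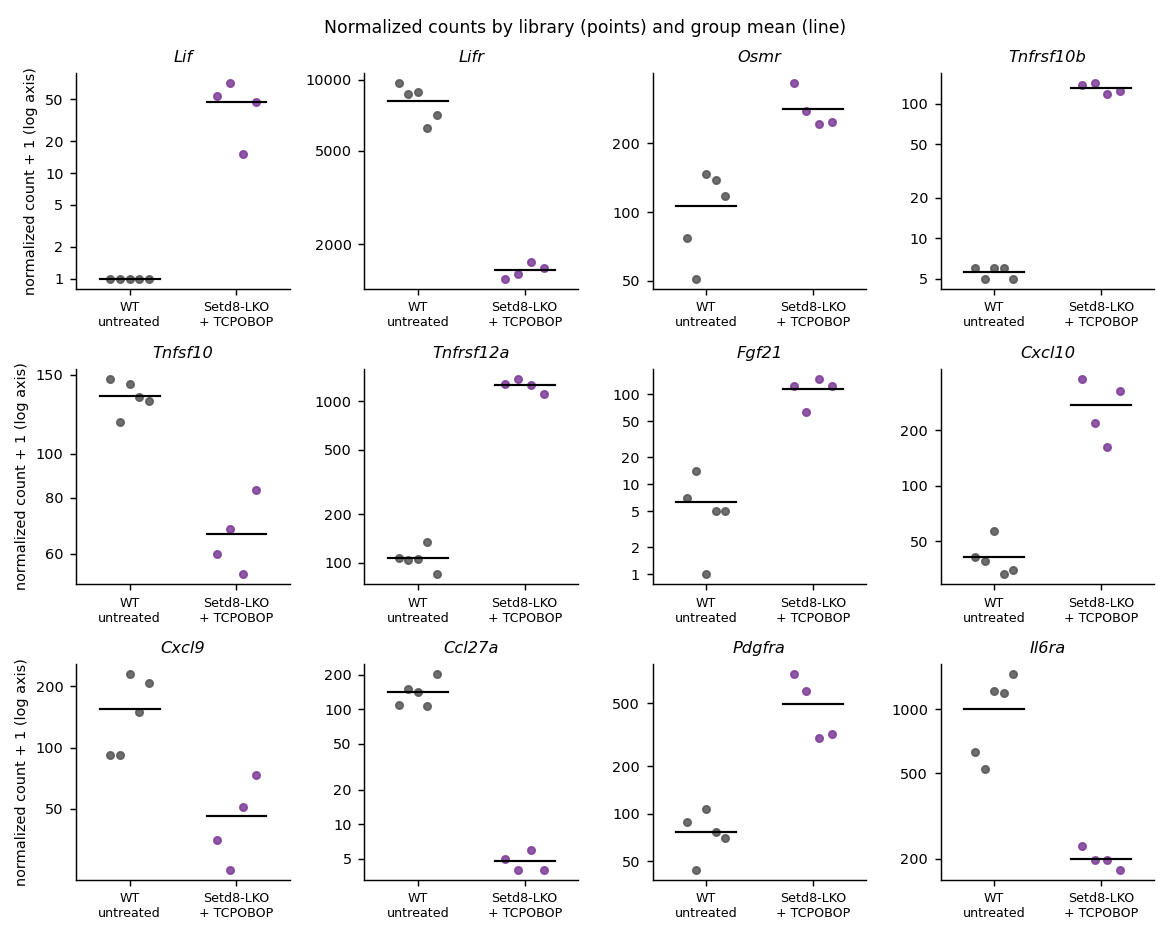
Normalized counts plus 1 (log axis) of 12 members in each library of untreated WT (n = 5) and Setd8-LKO + TCPOBOP (n = 4), points per library and lines at the group mean. Lif and Lifr, Tnfrsf10b and Tnfsf10, and Cxcl10 and Cxcl9 moved in opposite directions, and the groups did not overlap in any of the 12.

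The TGF-beta, BMP, GDF and inhibin group had 9 members higher, 3 lower and 2 not called of 14 tested, and a median of 1.94. Gdf15, a stress-induced hormone that acts on the brainstem receptor GFRAL, was counted at 167, 104, 67, 104 and 72 in untreated WT and at 2081, 2318, 3791 and 2231 in Setd8-LKO + TCPOBOP (25.3-fold, log2 fold change 4.66, SE 0.31, adjusted p = 3.22e-06). Bmp8a and Bmp8b, related bone morphogenetic protein genes on chromosome 4 between which reads may be split, also rose. Bmp8a went from 1, 0, 2, 1 and 1 to 28, 29, 43 and 26 (4.72, SE 0.42) and Bmp8b from 85, 140, 89, 107 and 86 to 515, 523, 670 and 527 (2.46, SE 0.19, adjusted p = 7.27e-06). Setd8-LKO + TCPOBOP replicate 3, the library with the lowest counts for most rising members, was the highest for Gdf15, Bmp8a and Bmp8b.

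Among ligands of the TGF-beta receptors, Tgfb2 rose from 18, 5, 11, 12 and 13 to 114, 84, 49 and 101 (2.83, SE 0.35, adjusted p = 0.000126) and Tgfb3 from 5 to 25 up to 29 to 96 (1.90, SE 0.44). Tgfbr2, the receptor that binds these ligands first, rose from 725, 555, 619, 767 and 534 to 2067, 1973, 1738 and 2082 (3.07-fold, log2 fold change 1.62, SE 0.15, adjusted p = 2.05e-05). Its spread was small in both groups, but the change was 0.80 with DESeq2 size factors, below the threshold. Gdf10 (2.12) and Gdf6 (1.98) rose too, the first from 79 to 197 up to 320 to 752 and the second from 5 to 17 up to 25 to 69.

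The inhibin beta subunits, which pair to form activins, differed in direction. Inhbb rose from 21, 28, 45, 41 and 34 to 168, 132, 142 and 108 (2.01, SE 0.25, adjusted p = 0.000135). Inhba fell from 230, 299, 154, 192 and 139 to 81, 61, 74 and 67 (-1.52, SE 0.25, adjusted p = 0.000878), and Inhbc, a subunit made chiefly by hepatocytes, from 1021 to 1576 down to 326 to 557 (-1.50, SE 0.20), with 14.4% of its exon length under an antisense gene. Inhbe, also a hepatocyte gene, varied within each group and was not called, at 541, 963, 240, 1399 and 258 against 1406, 827, 1511 and 3137 (1.34, adjusted p = 0.165). Bmp1 fell from 2137 to 2627 down to 1014 to 1169 (-1.12, SE 0.13), and Gdf9 was not called (1.09, adjusted p = 0.155).

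In the FGF group, Fgf21, a metabolic stress hormone of the liver, was counted at 6, 13, 0, 4 and 4 in untreated WT and at 122, 63, 148 and 123 in Setd8-LKO + TCPOBOP (21-fold, log2 fold change 4.39, SE 0.55, adjusted p = 0.000128). Fgf12, an intracellular FGF homologue, rose from 6 to 13 up to 17 to 76 (2.15, SE 0.45). Fgfr4, the main FGF receptor of hepatocytes and the one for the bile acid signal Fgf15, fell from 821 to 1170 down to 388 to 496 (-1.11, SE 0.15, adjusted p = 0.000221). Klb, the beta-Klotho co-receptor of Fgf21 and Fgf15, fell as well, from a mean of 537.2 to 110 (-2.29, SE 0.18). Hbegf, a ligand of the EGF receptor, rose from 23, 15, 17, 19 and 18 to 68, 58, 21 and 74 (1.58, SE 0.35, adjusted p = 0.00624), but its groups overlapped through Setd8-LKO + TCPOBOP replicate 3.

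All 6 listed PDGF genes were called higher, against 55.2% of all tested genes, and Vegfb fell. The ligand Pdgfa was counted at 146, 125, 125, 133 and 163 in untreated WT and at 663, 693, 676 and 671 in Setd8-LKO + TCPOBOP (4.87-fold, log2 fold change 2.28, SE 0.14, adjusted p = 2.01e-06), although an antisense gene, 6330403L08Rik, lies over 26.1% of its exon length. Pdgfra, the receptor for that ligand on stellate cells and fibroblasts, rose from 87, 43, 106, 75 and 69 to 767, 602, 300 and 318 (6.53-fold, log2 fold change 2.71, SE 0.34, adjusted p = 0.000135). The 4 Setd8-LKO + TCPOBOP libraries were nearly equal for Pdgfa, whereas for Pdgfra replicates 1 and 2 had about double the counts of replicates 3 and 4, as the stellate cell marker sum had. Pdgfrb, the other receptor, rose from 124 to 206 up to 290 to 594 (1.38, SE 0.25). The ligands Pdgfd (1.36), Pdgfc (1.23) and Pdgfb (1.15) rose by less, and these 3 and Pdgfrb were not called with DESeq2 size factors. Vegfb, a VEGF ligand, fell from 140 to 296 down to 71 to 102 (-1.39, SE 0.23, adjusted p = 0.000917).

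The libraries did not contribute alike. Among the 37 members called higher, Setd8-LKO + TCPOBOP replicate 1 had the highest count of its group for 22 and replicate 3 the lowest for 26, and replicate 3 also had the lowest stellate cell and cholangiocyte marker sums. Among the 17 called lower, replicate 2 had the lowest count for 11. Leaving out single libraries changed the number called higher to between 33 and 41 and the number called lower to between 16 and 19.

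Both sides of several signalling pairs were among the members, and the sides differed in direction in some pairs and rose together in others. For Lif and Lifr and for Tnfsf10 and its receptors the ligand and the receptor were called in opposite directions. Il33 rose while Il1rap, the accessory chain of its receptor, fell. Il7 rose while Il7r was not called, with 5 to 11 against 7 to 26 counts. For Ccl2 and Ccr2, Tgfb2 and Tgfb3 with Tgfbr2, and the PDGF ligands with Pdgfra and Pdgfrb, ligand and receptor both rose. With DESeq2 size factors, Ccl2, Ccr2, Tgfb3, Tgfbr2, Pdgfb, Pdgfc, Pdgfd, Pdgfrb and Il33 were no longer called. The other called genes of these pairs kept their calls.

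The transducers and other ligands of the same pathways were counted from lists made by pathway membership. For comparison, the table listed 21.1% of the 18512 genes that had been tested, and 55.2% of its tested genes were called higher and 37.5% lower. Of 26 JAK-STAT genes only 2 were listed, Il6ra and the feedback gene Socs2 (-1.29, SE 0.33, adjusted p = 0.014), and both fell. Of 39 NF-kB and TNF or IL-1 receptor pathway genes 7 were listed, with 6 higher and 1 lower. Tnip1, an A20-binding inhibitor of NF-kB, rose by 2.49 (SE 0.16) and Relb by 1.59 (SE 0.28) on the log2 scale, and the adaptor gene Traf5 fell by 1.88 (SE 0.20). Of 42 TGF-beta and BMP pathway genes 12 were listed, with 8 higher and 3 lower. Thbs1, a target of TGF-beta that also activates its latent form, rose by 2.74 (SE 0.43) on the log2 scale. Genes not listed were not analysed here, so these counts say nothing of the rest of a pathway.

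Receptor tyrosine kinase genes outside the rule were split, with 7 higher and 7 lower of 17 tested (18 of 39 listed). Egfr, the receptor for Hbegf, fell from a mean of 19302 ± 5268 (SD, n = 5) to 1551 ± 743 (SD, n = 4), a log2 fold change of -3.64 (SE 0.37, adjusted p = 3.35e-05). Igf1 (-1.49), Nrp1 (-1.92), Insr (-1.01) and Met (-1.0), all strongly expressed in liver, fell. The ligands Nrg1 (2.12) and Hgf (1.77) and the growth response genes Jun (2.77) and Myc (2.55) rose. Of 39 further cytokine, chemokine and TNF family genes 8 were listed, with 5 higher and 3 lower. Clcf1, an IL-6 family ligand that also signals through Lifr, rose from a mean of 26.2 ± 6.42 (SD, n = 5) to 801.0 ± 103 (SD, n = 4), with a log2 fold change of 4.93 (SE 0.21, adjusted p = 3.97e-07). Eda2r, a receptor of the TNF family, rose by 4.76 (SE 0.33) and Ackr3, a scavenging chemokine receptor, by 2.70 (SE 0.37) on the log2 scale. In WT + TCPOBOP, Clcf1 (3.32, SE 0.22), Ackr3 (3.25, SE 0.39) and Jun (1.34, SE 0.23) were called higher too, with means of 264.2, 130.6 and 636.2. Both comparisons used the same 5 untreated WT libraries.

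In WT + TCPOBOP against untreated WT, 8 of 10 listed members were called higher (80%) and 0 lower by edgeR, against 58.2% higher and 20.6% lower (78.8% in either direction) among the 679 tested genes of that table. The groups did not overlap for 8 of 10 members, against 82% of tested genes, and the median log2 fold change was 1.70 over the members and 1.34 over all tested genes. At an unadjusted p under 0.05, 0 members were lower, and DESeq2's Wald test also called 0 lower. Gdf15 showed the largest rise, to 1519, 1539, 1271, 2057 and 1382 (15.1-fold, log2 fold change 3.92, SE 0.28), and Il7 went to 30, 22, 19, 28 and 20 (2.42, SE 0.40). Inhbb rose to 150, 177, 76, 84 and 144 (1.89, SE 0.31), Tnfrsf19 to 243, 241, 293, 206 and 206 (1.86, SE 0.27), and Tgfbr2 to 1885, 1861, 2004, 1771 and 1774 (1.54, SE 0.15). All 5 lay above every untreated library.

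Of the 4 members listed for WT + TCPOBOP alone, 3 were called. Ccl9, a macrophage-attracting chemokine, rose from 1098, 1041, 1333, 1023 and 1462 to 3879, 3526, 4054, 3808 and 4024 (3.24-fold, log2 fold change 1.70, SE 0.15, adjusted p = 7.6e-05). Tnfaip2 rose from 801, 673, 578, 654 and 525 to 1707, 1649, 1613, 1706 and 1530 (1.34, SE 0.15). Csf1, the macrophage growth factor, rose from 188, 170, 164, 318 and 125 to 512, 473, 462, 330 and 337 (1.13, SE 0.26, adjusted p = 0.0421). That call was lost without any 1 of 8 libraries, with an adjusted p of 0.058 to 0.124, and only leaving out the replicate 4 library of either group kept it. Cxcl1, a neutrophil-attracting chemokine, was not called, at 73, 58, 198, 569 and 55 against 867, 699, 1000, 31 and 499 (1.70, adjusted p = 1). Replicate 4 of each group lay on the other side of the rest, and the cause was not tested. Igfbp1, a binding protein for insulin-like growth factors that is regulated by fasting and insulin, was not called either, at 752, 493, 710, 121 and 357 (-1.41, adjusted p = 1).

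The scaling carried more weight here than in the first comparison. With DESeq2 size factors over the listed genes, which moved the median of all genes by -1.17, or TMM factors (-1.25), only Gdf15 was still called higher, and Csf1 changed sign (-0.032 and -0.13). Among 679 tested genes here, 395 were called higher, and these factors assume that most genes do not change.

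**Figure D4:**
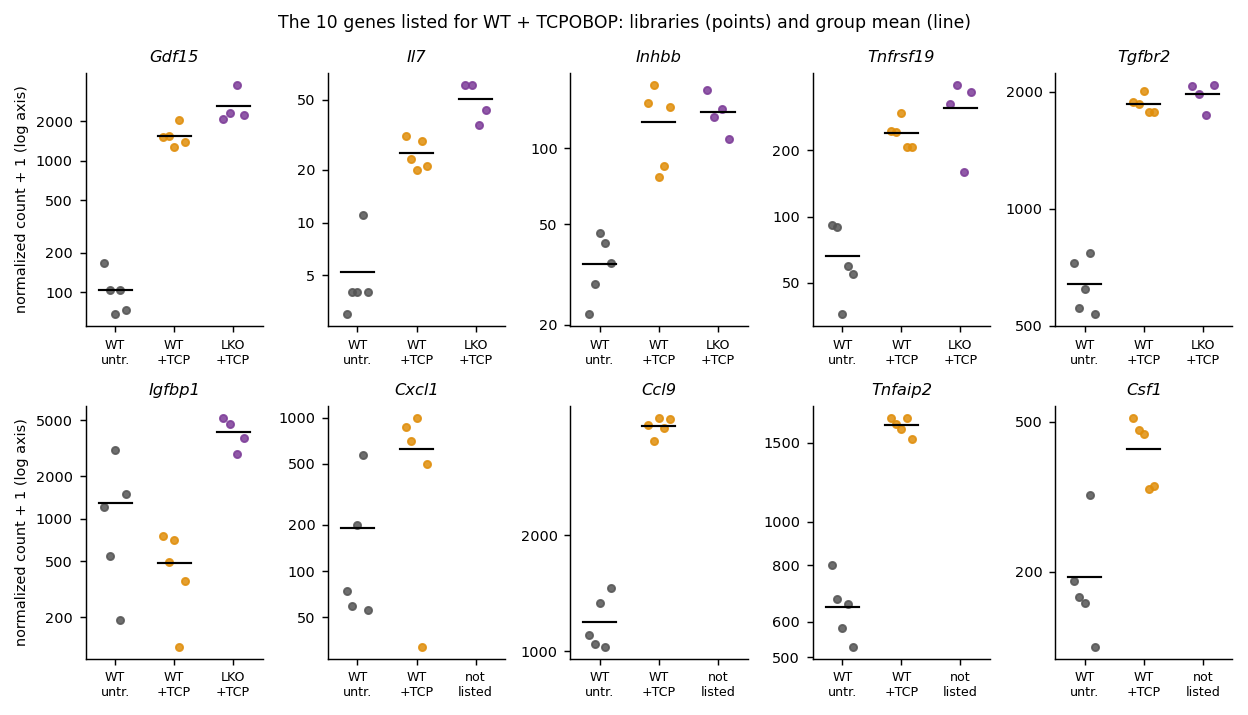
Normalized counts plus 1 (log axis) of the 10 members listed for WT + TCPOBOP, points per library and lines at the group mean, for untreated WT (n = 5), WT + TCPOBOP (n = 5) and, where listed, Setd8-LKO + TCPOBOP (n = 4). Igfbp1 was higher in every Setd8-LKO + TCPOBOP library than in every WT + TCPOBOP library, while Tgfbr2, Inhbb and Tnfrsf19 overlapped between the treated groups.

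Since the TCPOBOP-treated groups were both injected, they were also compared directly for the 506 genes in both tables, a comparison added after the data were seen. Untreated Setd8-LKO livers were not analysed here, so a difference in response to TCPOBOP cannot be told apart from one present before it. Of 494 genes tested, 17.4% were called higher in Setd8-LKO + TCPOBOP, 28.3% lower and 45.7% in either direction, and of the 6 members 2 were higher and 0 lower, all 6 fitted differences being above 0 in edgeR. Igfbp1 showed the largest difference, 752, 493, 710, 121 and 357 in WT + TCPOBOP against 5243, 4702, 2876 and 3778 in Setd8-LKO + TCPOBOP (8.53-fold, log2 fold change 3.09, SE 0.44, edgeR adjusted p = 0.000116). In the untreated WT livers the same gene ranged from 188 to 3061, and neither treated group was called against them. The higher value against untreated WT (1.68, adjusted p = 0.0932) was called without untreated WT replicate 3, the library with 3061 counts (2.28, adjusted p = 0.0115).

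Il7 was 2.08-fold higher in Setd8-LKO + TCPOBOP than in WT + TCPOBOP (log2 fold change 1.06, SE 0.26, adjusted p = 0.005), with 35 to 60 against 19 to 30 counts. It fell short of the 2-fold threshold without WT + TCPOBOP replicate 3 (0.99) or Setd8-LKO + TCPOBOP replicate 1 or 2 (0.95 in each). Gdf15 was 1.68-fold higher (0.75, SE 0.22, adjusted p = 0.0125), below that threshold, with 2081 to 3791 against 1271 to 2057 counts. Tnfrsf19 (0.39, SE 0.26, adjusted p = 0.23), Inhbb (0.12, SE 0.28, adjusted p = 0.731) and Tgfbr2 (0.08, SE 0.13, adjusted p = 0.626) were not called, and for these 3 the groups overlapped.

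Chromatin at the starts of the genes was read from 1 peak list per condition, untreated WT and Setd8-LKO + TCPOBOP, so differences between lists have no replicate check and no test. H3K27ac, a histone mark of active promoters and enhancers, and ATAC-seq, which marks open chromatin, were profiled in other libraries than the RNA (3 and 3 libraries for H3K27ac, 3 and 5 for ATAC-seq). An H3K27ac peak lay within 1000 bp of an annotated start for 41 of 72 members in the untreated WT list and for 46 in the Setd8-LKO + TCPOBOP list, against 60.9% and 64.4% of all 4101 listed genes with a start. ATAC-seq peaks lay there for 30 and 25 members, against 44.7% and 38.2% of listed genes.

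Of the 37 members called higher, 22 (59.5%) had an H3K27ac peak at a start in untreated WT and 28 (75.7%) in Setd8-LKO + TCPOBOP. Of all 2053 genes called higher with a start, 58.5% and 65.8% had one. The 6 members with a peak only in the Setd8-LKO + TCPOBOP list were Tnfrsf10b, Bmp8a, Bmp8b, Fgf21, Cx3cl1 and Cxcr4 (16.2%, against 8.38% of those 2053 genes), and none had a peak only in untreated WT. The Fgf21 peak of Setd8-LKO + TCPOBOP and the Lif peak of untreated WT were weak, with a -log10 p under 20. The fold enrichment over the control that MACS2 gives was taken from the highest peak within 1000 bp of any start. It was 5.43 in untreated WT and 39.0 in Setd8-LKO + TCPOBOP at Lif. It was 9.22 and 31.1 at Tgfb2, 7.34 and 23.3 at Cxcl14, 11.9 and 29.9 at Tnfrsf12a and 20.4 and 41.8 at Inhbb. At Pdgfa it was 56.8 and 54.0. At Gdf15 the highest peaks had 23.3 and 24.9, but the peaks over its RefSeq promoter windows had 8.9 in untreated WT and 24.9 in Setd8-LKO + TCPOBOP. No H3K27ac peak of either list lay over the RefSeq promoter windows of Lif, Bmp8a, Fgf21 or Cxcr4. At Inhbb and Cxcl14 only the Setd8-LKO + TCPOBOP list held a peak over the window. Among the 22 genes with a peak in both lists, enrichment was higher in Setd8-LKO + TCPOBOP for 17 (77.3%, median ratio 1.45), near the 74.6% of 1179 for all genes called higher (median ratio 1.35).

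Of the 17 members called lower, 11 had an H3K27ac peak in untreated WT and 9 in Setd8-LKO + TCPOBOP, and Ccl27a and Cxcl11 had one in untreated WT alone. These are 64.7%, 52.9% and 11.8% of the 17, against 69%, 66.5% and 4.67% of all 1393 genes called lower with a start. The Cxcl11 peak was weak, with an enrichment of 3.83 and a -log10 p under 20. At Ccl27a, the H3K27ac enrichment was 10.6 and the ATAC-seq enrichment 7.83 in untreated WT, and neither list of Setd8-LKO + TCPOBOP held a peak there. The H3K27ac peak of Ccl27a lay outside its RefSeq promoter windows. Lifr kept its peak, with an enrichment of 69.7 and 54.5, and so did Il6ra, with 48.2 and 40.9. Enrichment was higher in Setd8-LKO + TCPOBOP for 3 of the 9 with a peak in both lists, the same 33.3% as among 896 genes called lower. Of the 37 members called higher, 13 (35.1%) had an ATAC-seq peak in untreated WT and 11 (29.7%) in Setd8-LKO + TCPOBOP. Among all genes called higher the shares were 39.8% and 35.3%. The peak was in the Setd8-LKO + TCPOBOP list alone for Cxcl10 (enrichment 5.40), Ccl2 (8.62) and Osmr (7.32), and in the untreated WT list alone for Lif, Hbegf, Pdgfa, Pdgfra and Pdgfd. These shares, 8.11% and 13.5%, compare with 3.6% and 8.13% of all genes called higher.

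**Figure D5:**
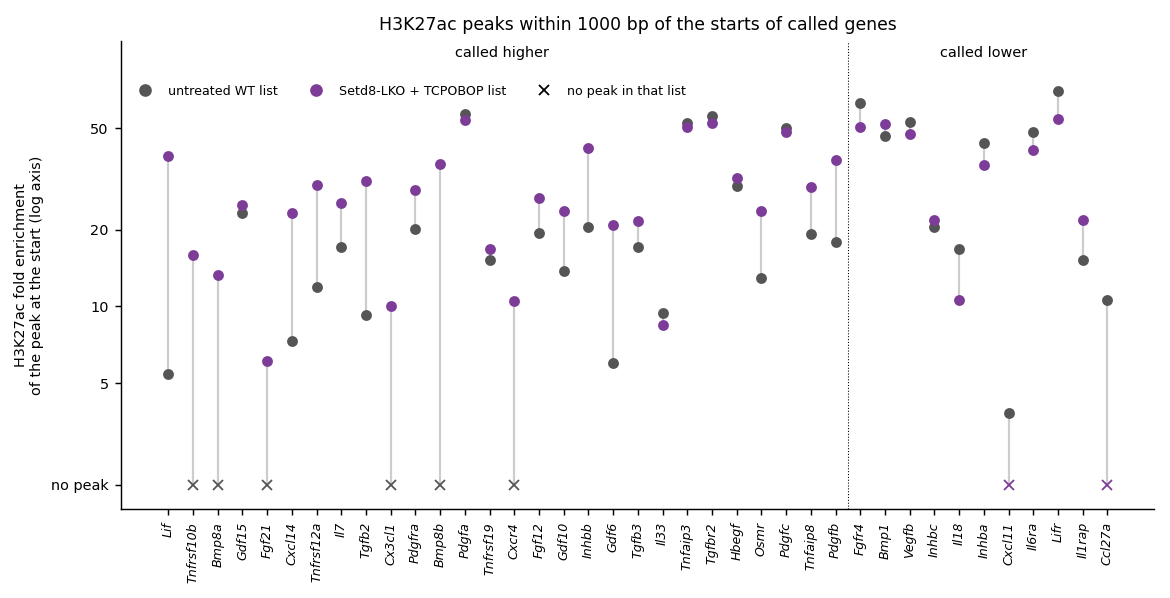
H3K27ac fold enrichment (log axis) of the highest peak within 1000 bp of the start of each called member with a peak in either list, grey for the untreated WT list, purple for Setd8-LKO + TCPOBOP, crosses where a list holds no peak. Genes called higher stand left, with 6 peaks found only in Setd8-LKO + TCPOBOP, and genes called lower right, with 2 found only in untreated WT.

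The factors CTCF and Smc3, which organise chromatin loops, had peaks at more starts in Setd8-LKO + TCPOBOP, as they had over the listed genes at large. Libraries of untreated WT and Setd8-LKO + TCPOBOP numbered 4 and 2 for CTCF and 3 and 2 for Smc3. The paper reports weaker binding at new sites of both factors and no canonical motif at most new CTCF sites. It judges this new binding to be probably unstable and without function. For CTCF 6 members had a peak in untreated WT and 32 in Setd8-LKO + TCPOBOP (8.33% and 44.4%, against 6.97% and 42.0% of listed genes), and for Smc3 14 and 40 (19.4% and 55.6%, against 19.5% and 58.0%). Islands of Lamin A/C covered 4 and 3 members (5.56% and 4.17%, against 7.36% and 5.75% of listed genes) and those of H4K20Me3 1 in each list (1.39%, against 4.88% and 6.24%).

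RefSeq promoter windows, from 250 bases before to 50 after the start, were found for 58 of the 72 members (77 windows). AP-1 letters occurred in 19.5% of these windows and in 7.81% of all 32851 mouse promoter windows, and NF-kB letters in 10.4% and 1.25%. CARE letters occurred in 9.09% and 3.97%, TATA letters in 20.8% and 13.6%, ISRE core letters in 9.09% and 8.56% and CRE letters in 1.3% and 1.79%. Over all promoters AP-1 and ISRE core matches overlapped in 4, CARE and ISRE core matches in 10 and NF-kB and ISRE core matches in 4. NF-kB letters were found in 4 of 36 windows of members called higher and 0 of 19 windows of members called lower, whereas AP-1 letters were found in 6 and 4. The shares count windows, and overlapping windows of a gene can count the same site repeatedly, as for CARE in Ccl27a and AP-1 in Tnfsf13b. The CARE match of Ccl27a also recurs in its near-identical copy Ccl27b. Among members called lower, the windows with AP-1 letters were those of Ccl27a, Ccl27b and Cxcl9. These shares describe the families and were not tested.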

How the data were processed

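Total RNA of whole liver was sequenced, and the authors used PRINSEQ to filter reads, HISAT2 with the mm10 genome for alignment, and metaseqR for counts and normalization. Whether strand was used in counting is not given in the sources used here. The deposited counts are raw and normalized counts per gene and library for the genes that the authors had selected, and each normalized count was its raw count times the factor of that library, with a deviation of at most 0.0617%. Per-library columns of transformed counts, 114 in all, were left aside. The deposited columns of the authors' own comparisons hold fold changes, p-values and FDR, and only the ratio of FDR to p-value was used, to derive that 18512 genes had been tested. For chromatin, the submitters' processing notes name Trimmomatic 0.39, MACS2 2.2.7.1, deepTools 3.3.2 and SICER. The authors removed duplicate and blacklisted reads, reduced ChIP-seq and CUT&Tag reads in proportion to the smallest sample and called 1 peak list per condition. Each deposited peak carries the fold enrichment and -log10 p that MACS2 computed for the authors. Each deposited Lamin A/C or H4K20Me3 island carries a SICER score. How replicates entered a list is not given in the sources used here.

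The quasi-likelihood test of edgeR 4.0.16 (R 4.3.3) was run on raw counts with the authors' factors, after filterByExpr with a minimum count of 10 on a scale of 40000000 reads per library, and with Benjamini-Hochberg adjustment over 18512 genes, except in the direct comparison of the treated groups, where it ran over the 494 genes tested. Every adjusted p in the text is from that test unless another is named, and a gene was called where that p was under 0.05 and the fitted change was 1 or more on the log2 scale in either direction. DESeq2 1.42.0 and TMM served as alternatives, as did no filter, adjustment over listed genes, run as a term, the replicate number as a block and leaving out each library. On simulated counts, 183 of 200 changed genes (91.5%) were recovered among 3900 genes for Setd8-LKO + TCPOBOP and 180 of 200 (90%) among 719 for WT + TCPOBOP, 0 with the wrong sign. Of the unchanged genes 1 and 0 were called. The changed genes were drawn from genes above a minimum untreated count, and their planted changes were larger than the calling threshold. The recovery therefore does not cover members at low untreated counts or with changes near that threshold. A floor of 3 counts over a group stands in for a group at 0. The methods describe the RNA-seq samples as biological replicates.

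Gene positions are those of GENCODE M21 on GRCm38, with which all 72 members and 4101 of 4113 listed genes matched, and peaks were assigned within 1000 bp of any transcript start with Python 3.11.15, pandas 2.3.3 and numpy 2.4.6. Promoters come from RefSeq on GRCm38.p6. Named are all members of the WT + TCPOBOP table, up to 6 risers and 3 fallers of each family by fitted fold change, members tested and not called, those under the filter, ligand and receptor pairs, and Kmt5a. Cxcl9, Ccl24, Gdf6, Il6ra and the single pathway genes were named after their values were seen. The members, families and pathway lists were chosen with earlier results of these data known.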

Additional observations from a re-analysis of the deposited data

Results flagged for a closer look

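In 8 of 150 combinations of a member and a group of 4 or 5 libraries (5.33%), 1 library stood apart from the rest of its group by Dixon's criterion, a share close to the 1 in 20 that chance gives. Of these, 3 concerned Setd8-LKO + TCPOBOP replicate 3, in which Gdf15 was counted at 3791 (2081 to 2318 in the others), Bmp8b at 670 (515 to 527) and Ccl2 at 17 (36 to 38). Il31ra was counted at 7181 in Setd8-LKO + TCPOBOP replicate 4, the only run A library of that group, and at 1003 to 1437 in the others. In untreated WT, Il7 was counted at 10 in replicate 4 (2 to 3 in the others), Cx3cl1 at 6 in replicate 2 (12 in each of the others), Gdf9 at 16 in replicate 3 (3 to 6) and Cxcl1 at 569 in replicate 4 (55 to 198).

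For 3 genes the level differed between TCPOBOP-treated Setd8-LKO and WT livers by edgeR's test of that difference. Igfbp1 was higher in Setd8-LKO + TCPOBOP than in WT + TCPOBOP by 3.09 on the log2 scale (adjusted p = 0.000116), in 4 of 4 against 5 libraries. Il7 was higher by 1.06 (adjusted p = 0.005), and Gdf15 by 0.75 (adjusted p = 0.0125), which is under the 2-fold threshold. In all 3 the lowest Setd8-LKO + TCPOBOP library lay above the highest WT + TCPOBOP library.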

How the results depend on the processing

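All listed genes had been selected on these libraries, genes outside the tables were not analysed here, and the library depths are not known from these files, so counts under about 10 carry the least precision. In Setd8-LKO + TCPOBOP against untreated WT, the number of members called higher (37) was 40 with TMM factors, 39 with no filter, 40 with DESeq2's test, 44 with adjustment over listed genes and 37 with run as a term, and that called lower (17) was 16 to 18. Run as a term lost Csf2ra, Il13ra2 and Tnfsf10 and gained Il1rn and Il17rd. With DESeq2 size factors 19 were called higher and 19 lower, and the 18 lost were Ccl2, Ccr2, Csf2ra, Csf2rb2, Cxcr4, Gdf6, Hbegf, Il13ra2, Il33, Osmr, Pdgfb, Pdgfc, Pdgfd, Pdgfrb, Tgfb3, Tgfbr2, Tnfaip3 and Tnfaip8. The shift of -0.82 in the median of all listed genes comes with that scaling by construction, and in all listed genes 845 were then called higher and 1497 lower, in place of 2056 and 1399. Leaving out each library gave 33 to 41 higher and 16 to 19 lower. Il31ra reversed with run as a term (0.19). In WT + TCPOBOP, 1 member was called higher with DESeq2 size factors and 1 with TMM factors, and Csf1 reversed (-0.032 and -0.13). Over all genes tested there, 75 and 71 were then called higher and 207 lower, in place of 395 and 140, and with the replicate block 298 and 66. Leaving out each library gave 7 to 8 higher and 0 lower.

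Libraries of one replicate number did not clearly deviate together (correlations from -0.148 to 0.067 in the first comparison and from -0.414 to 0.237 in the second). No pairing by number was therefore seen. Some numbers join libraries of different runs, so these few correlations cannot exclude a pairing. With the replicate block, 30 members were called higher and 16 lower in the first comparison and 6 higher in the second. In the direct comparison 1 member was called higher with the block, since Il7 then stood at 0.99, and 1 to 2 when each library was left out. Peaks within 2500 bp of a start, or with a -log10 p of at least 20, gave member counts within 1.5 times those at 1000 bp for both assays and lists.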
